A study of Mus musculus with 24 samples.

Results

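Tpm3-rs7, its parent gene Tpm3 and 4 predicted mouse genes, Gm14719, Gm5741, Gm7868 and Gm44168, were followed through 24 RNA-seq libraries of wild-type mouse brain. They are 6 of the 55487 genes counted in every library. Except for Tpm3, they were chosen by their measured levels in these libraries: 4 of them were high in some libraries and at or near 0 in others, and Gm44168 was low throughout with uneven reads. Their levels are therefore given as a description, and no test of them is read as support. Tpm3 was added as the gene from which Tpm3-rs7 derives.

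The mice had either an olfactory bulbectomy, in which the olfactory bulbs are taken out, or a sham operation, and polyadenylated RNA was taken from hippocampus, cortex and cerebellum. Hippocampus had 4 bulbectomy libraries (numbers 1 to 4 in the sample titles) and 5 sham libraries, cortex had 3 (numbers 1, 2 and 4) and 5, and cerebellum had 2 (numbers 1 and 2) and 5. The labels give no age, sex or strain and do not say whether a title number stands for the same animal in each tissue. All p-values therefore measure the spread between these libraries only. A library is named below by its tissue, operation and title number.

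Tropomyosins are coiled-coil proteins that lie along actin filaments and set which other proteins can bind them. Mammals have 4 tropomyosin genes, and Tpm3 makes several of the short cytoskeletal forms found in neurons and glia. A retrogene or processed pseudogene is a copy of a spliced mRNA that was written back into the genome, so it has no introns and can be so close to its parent that short reads cannot always be told apart. Predicted genes with a Gm number have been annotated from sequence, in many cases with no known product.

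Assigned reads ranged from 10073878 to 17052728 in cortex, from 10400540 to 20230673 in cerebellum and from 8145624 to 9608811 in 7 of the 9 hippocampal libraries. The other two were hippocampus sham 1 with 3255661 and hippocampus sham 4 with 138963332. Each tissue had its own markers: the mean log2 level of the list was 5.18 to 5.62 for 6 cortical layer genes in cortex and 7.73 to 8.56 for 7 cerebellar genes in cerebellum, and it was 5.58 to 5.91 for 7 hippocampal genes in hippocampus apart from sham 2, at 3.78. Hippocampus sham 1 and 2 had 8 striatal markers at 7.03 and 7.27, against 2.68 to 3.43 in the other 7 hippocampal libraries. Levels are in CPM, reads of a gene scaled to the size of the library, and 3 reads, taken as the limit below which a level is not read as detected, correspond to 0.0182 CPM in hippocampus sham 4, to 0.884 in hippocampus sham 1 and to 0.146 to 0.38 in the other libraries.

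Tpm3-rs7 (ENSMUSG00000058126) lies on chromosome 14 from 113314608 to 113316754 on the plus strand of mm10, as a single exon of 2147 bases annotated in GENCODE M21 as protein coding. Tpm3 (ENSMUSG00000027940) lies on chromosome 3 from 90072649 to 90100902 on the plus strand, with 6085 exonic bases. The Tpm3-rs7 transcript aligned to a Tpm3 transcript of 2230 bases at 99.1% identity over 2108 columns, with 13 substitutions. Of these, 3 lie in the coding sequence, and they are shown because they are the coding letters that tell the copy from its parent. Counted from the 5′ end of the Tpm3-rs7 transcript and with the Tpm3 base first, they are G140A, G166A and G195A. In the lines below, positions 110 to 225 of Tpm3-rs7 and 234 to 349 of that Tpm3 transcript are set out 5′ to 3′, with the differing bases in capitals.
Tpm3-rs7: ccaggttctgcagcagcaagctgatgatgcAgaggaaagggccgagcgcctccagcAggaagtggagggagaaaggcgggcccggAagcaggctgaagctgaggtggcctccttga
Tpm3: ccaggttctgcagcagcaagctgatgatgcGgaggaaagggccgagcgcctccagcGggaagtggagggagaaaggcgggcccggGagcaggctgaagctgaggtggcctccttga

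The longest run of the aligned Tpm3-rs7 sequence without a substitution is 875 bases. Missing bases were not counted as differences in it, and the alignment has 3 missing in the copy and 3 missing in the parent. The run lies between positions 195 and 1071 of Tpm3-rs7 and between 319 and 1197 of the Tpm3 transcript, so it also holds a gap. Of all distinct 50-base stretches of Tpm3-rs7, 30.6% were in no other annotated transcript, and 69.4% were also in Tpm3. With 100-base stretches the unique share was 50.2%. In the other direction, 76.8% of the 50-base stretches of Tpm3 were unique. The read length is not given in the sources used here, so these stretch lengths were set for the description. The totals of multi-mapping reads were 0 in every file, and how reads that fit both genes were handled is not known, so the split between Tpm3 and Tpm3-rs7 is uncertain.

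Tpm3-rs7 was high in 7 of the 9 bulbectomy libraries and low in the other two and in all 15 sham libraries. In hippocampus, bulbectomy 1, 2 and 4 had 225, 524 and 257 reads, or 25.0, 64.1 and 31.1 CPM, whereas bulbectomy 3 had 7 reads, or 0.887 CPM. The 5 hippocampal sham libraries had 5, 4, 4, 140 and 11 reads, or 1.47, 0.462, 0.478, 0.848 and 1.15 CPM. Hippocampus bulbectomy 3 thus lay inside the sham range, and the other three lay far above it.

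In cortex, bulbectomy 1 and 2 had 462 and 806 reads, or 30.4 and 78.3 CPM, and bulbectomy 4 had 6 reads, or 0.613 CPM. Cortical sham libraries 1 to 5 had 1.24, 0.778, 1.45, 1.05 and 0.488 CPM. Cortex bulbectomy 4 again lay inside the sham range. In cerebellum, bulbectomy 1 and 2 had 308 and 1051 reads, or 22.1 and 51.1 CPM, and sham libraries 1 to 5 had 0.305, 0.955, 0.437, 0.29 and 0.984 CPM. Cerebellum was the one tissue in which the groups did not overlap for Tpm3-rs7, and it has no bulbectomy library 3 or 4.

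The order of bulbectomy 1 and 2 for Tpm3-rs7 was the same in each tissue. Bulbectomy 2 exceeded bulbectomy 1 by 2.57 times in hippocampus, 2.58 times in cortex and 2.32 times in cerebellum. For title number 4 the tissues differed: Tpm3-rs7 was high in hippocampus bulbectomy 4 and low in cortex bulbectomy 4. The low hippocampal library is number 3, which has no cortical or cerebellar library. Over all tested genes, the deviations of hippocampus and cortex bulbectomy 4 from their group means correlated at r = -0.068, the lowest of the 7 pairs of same-numbered bulbectomy libraries, of which the highest was 0.264. The 19 pairs of bulbectomy libraries with different numbers ran from -0.281 to 0.273, so this measure does not tell which bulbectomy libraries belong together. Same-numbered sham libraries ran from -0.161 to 0.454, and the negative values all involve cortex sham 5. Sham libraries with different numbers ran from -0.473 to 0.47. These are correlations across genes, given as a description, and the deviations within so small a group are not independent.

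**Figure D1:**
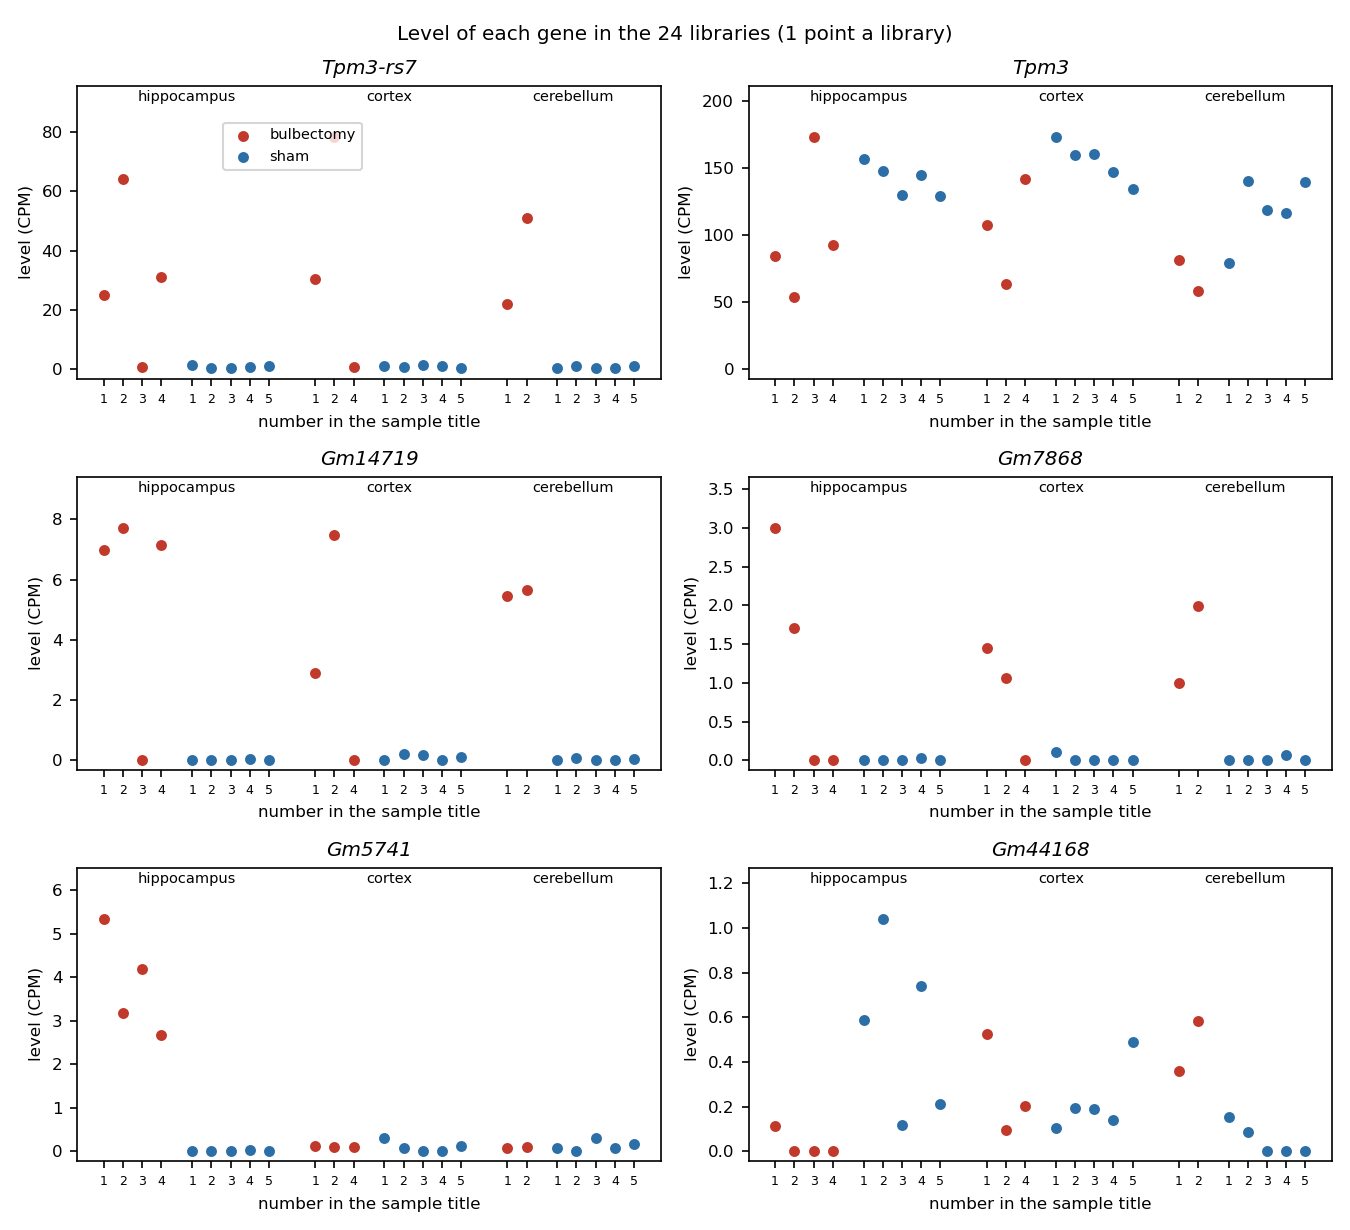
Level in CPM (y axis, linear, own scale in each panel) of the 6 genes in the 24 libraries, ordered by tissue, operation and title number (x axis), with 1 point a library, red for bulbectomy and blue for sham. Tpm3-rs7, Gm14719 and Gm7868 are raised in bulbectomy 1 and 2 of each tissue, and the first pair of these also in hippocampus bulbectomy 4, where Gm7868 has 0 reads. Tpm3 is low where Tpm3-rs7 is high and also in cerebellum sham 1, and Gm5741 is raised in the 4 hippocampal bulbectomy libraries.

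Tpm3 was lower in the libraries with high Tpm3-rs7 than in the other libraries of the same tissue, apart from cerebellum sham 1. Hippocampus bulbectomy 1, 2 and 4 had 84.5, 53.7 and 92.6 CPM of Tpm3, and bulbectomy 3 had 173. The hippocampal sham libraries had 157, 148, 130.3, 145 and 129.6 CPM. The 3 bulbectomy libraries with high Tpm3-rs7 were all below the lowest sham library, and bulbectomy 3 was above the highest.

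In cortex, Tpm3 stood at 108 CPM in bulbectomy 1, 63.8 in bulbectomy 2 and 142 in bulbectomy 4, against 173, 159.8, 161, 148 and 135 in sham 1 to 5. Only the first pair of these lay below the sham range, and they are the libraries with high Tpm3-rs7. In cerebellum, bulbectomy 1 and 2 had 81.3 and 58.3 CPM, against 79.2, 140.4, 119, 117 and 139.8 in sham 1 to 5. Cerebellum bulbectomy 1 was above sham 1, so the groups overlapped. The tissue-centred log2 levels of Tpm3 and Tpm3-rs7 correlated at r = -0.855 over the 24 libraries (Spearman's rho -0.405). The libraries are not independent of each other, and the relation rests on the 7 with high Tpm3-rs7, so no p is given.

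The share of Tpm3-rs7 in the reads of both genes was alike in the 3 tissues for bulbectomy 1, lower in cerebellum for bulbectomy 2, and unlike in hippocampus and cortex for bulbectomy 4. For bulbectomy 1 it was 22.8% in hippocampus (exact Clopper-Pearson 95% interval 20.2 to 25.6), 22.0% in cortex (20.2 to 23.8) and 21.3% in cerebellum (19.3 to 23.6). The 3 intervals overlap. For bulbectomy 2 it was 54.4% in hippocampus (51.2 to 57.6), 55.1% in cortex (52.5 to 57.7) and 46.7% in cerebellum (44.6 to 48.8), with the cerebellar interval below the other two. Hippocampus bulbectomy 4 had 25.1% (22.5 to 27.9). Hippocampus bulbectomy 3 had 0.51% and cortex bulbectomy 4 had 0.43%, inside the 0.248% to 0.931% of the 15 sham libraries. These intervals cover counting error only, since reads without molecular identifiers are not independent molecules.

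Genes can be compared only per length, and here the order rests on the length taken for Tpm3. Per kilobase of all annotated exons, hippocampus bulbectomy 2 had 29.9 CPM of Tpm3-rs7 and 8.83 of Tpm3, and cerebellum bulbectomy 2 had 23.8 and 9.59. Cerebellum bulbectomy 2 had more reads of Tpm3 (1200) than of Tpm3-rs7 (1051), so over the aligned transcript of 2230 bases, in place of 6085, Tpm3 would be the higher of the pair there. Per kilobase of all exons, Tpm3-rs7 and Tpm3 were at 11.6 and 13.9 in hippocampus bulbectomy 1 and at 0.687 and 25.8 in hippocampus sham 1.

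**Figure D2:**
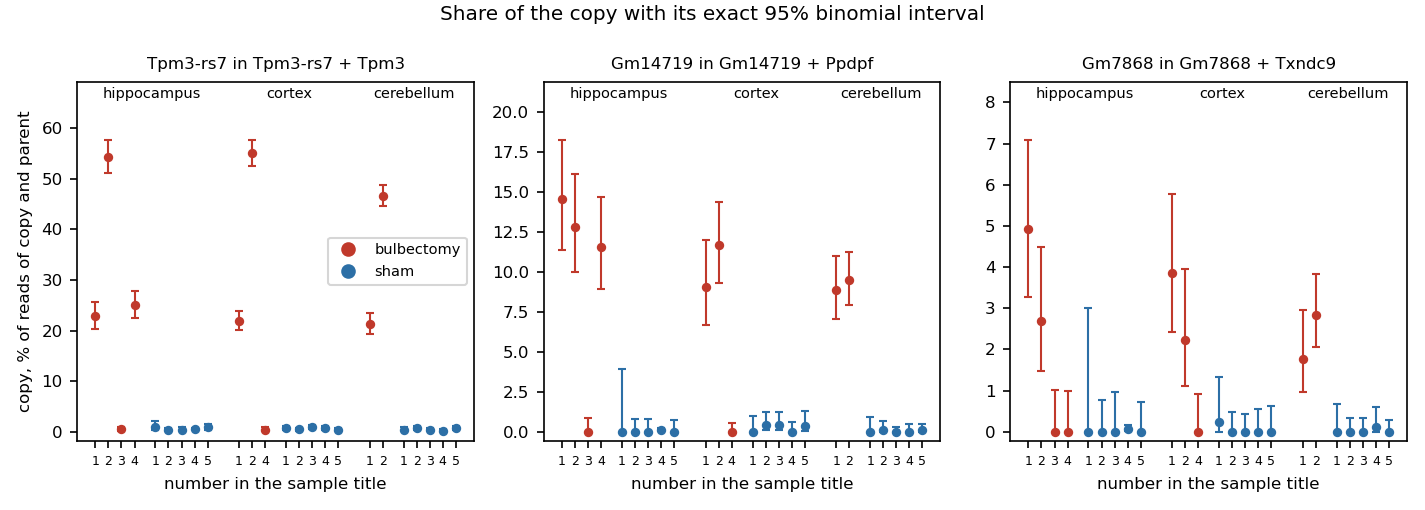
Reads of a copy as a percentage of the reads of the copy and its parent (y axis, own scale in each panel) for Tpm3-rs7, Gm14719 and Gm7868, by tissue and title number (x axis), with red for bulbectomy and blue for sham, and bars for the exact 95% binomial interval. Tpm3-rs7 makes up about the same share for bulbectomy 1 in the 3 tissues, 21.3% to 22.8%, and a larger one for bulbectomy 2, 46.7% to 55.1%.

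The sum of the pair varied less between the groups than either gene. As the pair differed in opposite directions, the sum was bound to differ less than the gene with the larger difference. Nothing is read from that. In hippocampus, Tpm3 and Tpm3-rs7 together came to 109.5, 118, 174 and 124 CPM in bulbectomy 1 to 4 and to 158, 149, 131, 146 and 131 CPM in the sham libraries. In cortex the sum was 138, 142 and 142 CPM in bulbectomy 1, 2 and 4, a spread of 141 ± 2.34 (SD, n = 3), and 156 ± 14.9 in the sham libraries (SD, n = 5). In cerebellum it was 103 and 109 CPM against 119.5 ± 25.1 (SD, n = 5). In each tissue the bulbectomy sums overlapped the sham sums.

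**Figure D3:**
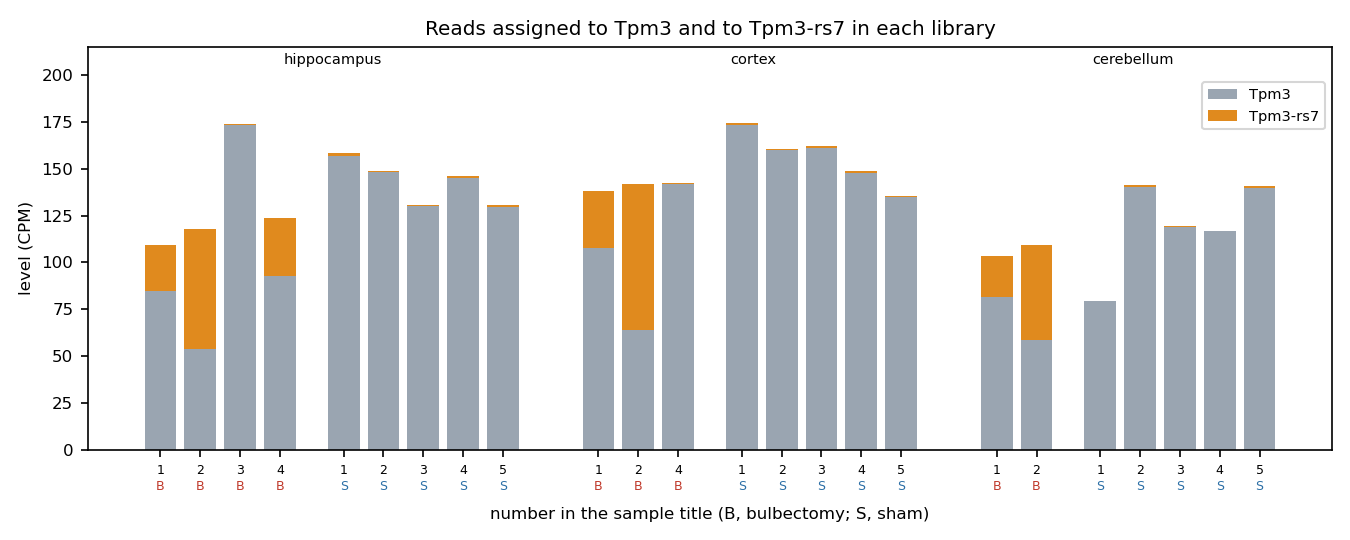
Level in CPM (y axis) assigned to Tpm3 (grey) and to Tpm3-rs7 (orange, stacked on top) in each of the 24 libraries (x axis, title number with B for bulbectomy and S for sham). The orange part is visible in 7 bulbectomy libraries, and in cortex the whole bars of the bulbectomy libraries end at 138 to 142 CPM.

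Tpm3 was tested between bulbectomy and sham with edgeR's quasi-likelihood test and Benjamini-Hochberg adjustment over all genes of a tissue, with adjusted p under 0.05 as the call. In hippocampus, Tpm3 was 101 ± 51.0 CPM after bulbectomy (SD, n = 4) and 142 ± 11.8 after sham operation (SD, n = 5), a log2 difference of -0.45 (standard error 0.27) with edgeR adjusted p = 0.37. Without hippocampus bulbectomy 3 the difference was -0.87 and the adjusted p 0.0911. Without bulbectomy 2 it was -0.25. In cortex the means were 104.5 ± 39.1 (n = 3) and 155 ± 14.6 (n = 5), a log2 difference of -0.59 (standard error 0.22) with edgeR adjusted p = 0.77. Leaving out cortex bulbectomy 4 gave -0.87, and leaving out bulbectomy 2 gave -0.33. In cerebellum they were 69.8 ± 16.2 (n = 2) and 119 ± 24.9 (n = 5), a log2 difference of -0.78 (standard error 0.25) with edgeR adjusted p = 1. Tpm3 passed the call in no tissue, and of all genes tested the call was passed by 1.55% in hippocampus, 0.0202% in cortex and 0.0131% in cerebellum.

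When the Tpm3-rs7 reads were added to Tpm3 before the fit, an alternative chosen after seeing the data, the log2 difference was -0.09 (standard error 0.17, edgeR adjusted p = 0.802) in hippocampus. It was -0.19 (0.15, adjusted p = 0.872) in cortex and -0.18 (0.22, adjusted p = 1) in cerebellum. As Tpm3-rs7 was high in bulbectomy libraries only, adding its reads could only move the difference upwards. Nothing is read from the direction of that move. The 95% intervals of the summed gene were -0.43 to 0.25, -0.49 to 0.11 and -0.61 to 0.25. Those of Tpm3 alone were -0.98 to 0.08, -1.03 to -0.15 and -1.27 to -0.28. The difference of Tpm3 did not itself differ between tissues in a fit of all 24 libraries by edgeR: hippocampus minus cortex was 0.08 (95% interval -0.65 to 0.81), hippocampus minus cerebellum 0.28 (-0.51 to 1.07) and cortex minus cerebellum 0.20 (-0.61 to 1.01), each with adjusted p = 1. These intervals do not exclude differences of up to those bounds. With adjustment over all genes, larger ones could also have gone uncalled.

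**Figure D4:**
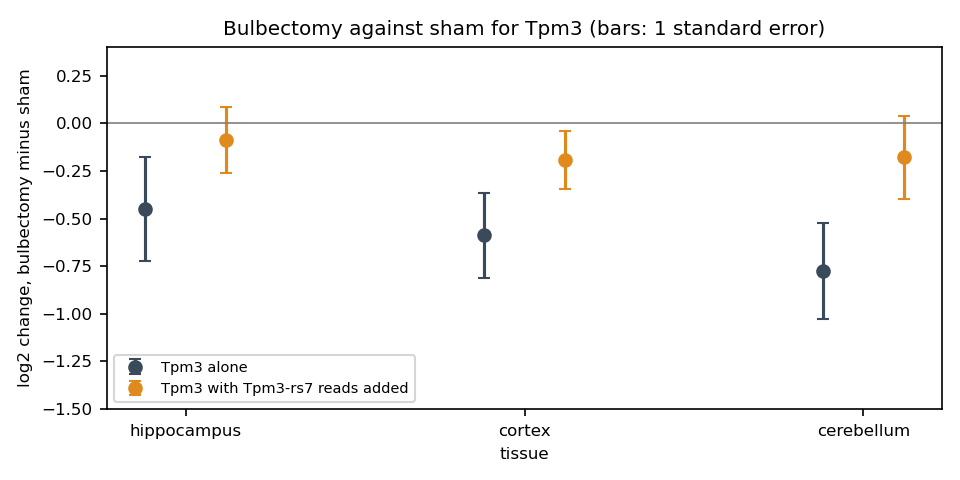
Log2 change of Tpm3 between bulbectomy and sham (y axis, bars for 1 standard error) in each tissue (x axis), for Tpm3 alone (dark) and after the reads of Tpm3-rs7 were added to it (orange). The values for Tpm3 alone run from -0.45 to -0.78 and those for the sum from -0.09 to -0.19. Tpm3-rs7 is high in bulbectomy libraries only, so adding its reads could only move the values upwards.

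Among sham libraries, the order of Tpm3 was cortex (155 ± 14.6 CPM), hippocampus (142 ± 11.8) and cerebellum (119 ± 24.9, n = 5 in each). With the libraries taken as unpaired, none of the 3 contrasts passed the edgeR test: hippocampus minus cortex was -0.13 on the log2 scale (adjusted p = 0.862; 4.64% of all genes called), hippocampus minus cerebellum 0.26 (adjusted p = 0.444; 30.9% called) and cortex minus cerebellum 0.38 (adjusted p = 0.212; 38.2% called). With the title numbers as a block, cortex minus cerebellum did pass, as given in the last section. Tpm3-rs7 in the sham libraries was 1.0 ± 0.38 CPM in cortex, 0.883 ± 0.44 in hippocampus and 0.594 ± 0.35 in cerebellum, with overlapping ranges.

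The genes most like Tpm3 by Pearson's correlation of tissue-centred log2 levels, out of 23729 others, were Cd180 (r = 0.862), Lap3 (0.814), H2-K2 (0.805), Fkbp15 (0.797) and Gm10499 (0.791). Cd180, a receptor-like protein of B cells and microglia, was at 15.2 CPM in hippocampus bulbectomy 3 and at 3.22, 1.47 and 3.15 in hippocampus bulbectomy 1, 2 and 4, against 4.2 to 9.43 in the hippocampal sham libraries. In cortex bulbectomy 1, 2 and 4 Cd180 was at 5.59, 2.43 and 4.19 CPM, all below the cortical sham range of 6.41 to 9.05. Cortex bulbectomy 4 was thus low for Cd180, with Tpm3 inside its sham range. H2-K2 is annotated in the major histocompatibility region. The summed level of 8 microglial markers, a list chosen after the values were seen, was 1901 CPM in hippocampus bulbectomy 3, 860 to 1079 in the other hippocampal bulbectomy libraries and 795 to 1639 in the hippocampal sham libraries. In cortex it was 790 to 1348 after bulbectomy and 882 to 1434 after sham operation, and in cerebellum 344 to 374 and 211 to 591. None of the 8 separated the groups in any tissue, and their part in the Tpm3 levels was not tested. In bulk tissue fewer cells of a type and less RNA per cell cannot be told apart.

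The partners of tropomyosin were read from a list of 34 genes. These were the other tropomyosins, tropomodulins (which cap filament ends), leiomodins, troponins, actins, cofilins, myosin II heavy chains, calponins and caldesmon. In hippocampus 22 of them passed the low-count filter, and 1 rose and 0 fell, where 1.55% of all genes were called. At an unadjusted p under 0.05 there were 6 of the 22, against 20% of all genes. The one was Actb, which encodes beta-actin, at 2337 ± 440.1 CPM after bulbectomy (n = 4) and 1118 ± 119 after sham operation (n = 5), a log2 difference of 1.10 (standard error 0.18, edgeR adjusted p = 0.0115). No listed gene passed when hippocampus bulbectomy 2 was left out, where 30 of all 14271 genes tested passed, against 217 of 13985 with every hippocampal library. The median log2 difference of the list was 0.13, against 0.02 over all genes tested.

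In cortex, 24 partner genes were tested and 0 passed by edgeR or DESeq2, with 3 at an unadjusted p under 0.05, against 5.91% of all genes. The 3 with the smallest p were Tpm2, Cfl1 and Tnnt1. Tpm2, a tropomyosin best known from muscle, was at 15.6 ± 3.68 CPM after bulbectomy (n = 3) and 8.19 ± 1.2 after sham operation (n = 5), a log2 difference of 0.90 with edgeR adjusted p = 0.384. Without cortex bulbectomy 1, 573 of all 15103 genes tested passed by edgeR, against 3 of 14847 with every cortical library. Of the listed genes 4 passed there, Tpm2 among them at 1.05 (edgeR adjusted p = 0.0263). Cfl1 (cofilin, which severs actin filaments) was at 1139 against 746 CPM (adjusted p = 0.727) and Tnnt1 at 7.7 against 4.63 (adjusted p = 0.77). In cerebellum, 26 were tested and 0 passed by edgeR or DESeq2, with 0 at an unadjusted p under 0.05, against 2.97% of all genes; the smallest p belonged to Tmod3, Actb and Myh10. Tmod3, a tropomodulin, was at 18.4 against 24.9 CPM, Actb at 1108 against 844, and Myh10, a nonmuscle myosin heavy chain, at 77.5 against 149. The list's medians were 0.09 in cortex and -0.09 in cerebellum, against 0.01 and -0.06 over all genes tested. Tpm2 stood at 11.8 against 13.7 CPM in hippocampus and at 32.6 against 26.9 in cerebellum and passed in neither. Tpm1 and Tpm4 did not pass in any tissue: Tpm1 was at 135 against 129 CPM in hippocampus, 157.5 against 155 in cortex and 144 against 131 in cerebellum, and Tpm4 at 13.9 against 12.8, 12.8 against 11.6 and 20.5 against 16.6.

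Gm14719 (ENSMUSG00000082192) lies on the X chromosome from 49660960 to 49661299 on the plus strand and is annotated as a processed pseudogene of 340 bases. All 340 bases aligned without a substitution to the coding sequence of Ppdpf (chromosome 2), and the copy lacks 8 bases of its parent. Those 8 bases are shown in capitals because they are the one difference: positions 199 to 259 of Gm14719 and 539 to 607 of a Ppdpf transcript of 1160 bases are set out 5′ to 3′.
Gm14719: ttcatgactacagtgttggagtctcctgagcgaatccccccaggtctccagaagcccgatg
Ppdpf: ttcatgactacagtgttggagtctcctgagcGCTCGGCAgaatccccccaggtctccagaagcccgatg

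Of the 50-base stretches of Gm14719, 83.5% were also in Ppdpf and 16.5% were unique, so a read can be told to be from the copy only where it crosses the gap. Gm14719 had reads in the same libraries as high Tpm3-rs7. In hippocampus, bulbectomy 1 to 4 had 63, 63, 0 and 59 reads, or 7.0, 7.71, 0 and 7.14 CPM, and the sham libraries had 0, 0, 0, 7 and 0 reads. The 7 reads in sham 4 were 0.0424 CPM in the deepest library. In cortex, bulbectomy 1, 2 and 4 had 44, 77 and 0 reads, or 2.89, 7.48 and 0 CPM, and the sham libraries had 0, 3, 3, 0 and 2 reads. In cerebellum, bulbectomy 1 and 2 had 76 and 116 reads, or 5.44 and 5.64 CPM, and the sham libraries 0, 1, 0, 0 and 1.

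Gm14719 correlated with Tpm3-rs7 at r = 0.978 (rho 0.788), the highest Pearson correlation of all genes for both. By rank correlation another gene, Hoxc4, stood first for Gm14719 (rho 0.893). It differed from Tpm3-rs7 in its heights: bulbectomy 2 was 1.10 times bulbectomy 1 in hippocampus, 2.59 times in cortex and 1.04 times in cerebellum. Ppdpf itself did not follow the pattern. It was at 41.1, 52.5, 55.9 and 54.7 CPM in hippocampus bulbectomy 1 to 4 and at 27.1 to 57 in the hippocampal sham libraries. The log2 difference of Ppdpf was 0.21 in hippocampus, 0.32 in cortex and -0.09 in cerebellum, and by edgeR it passed in no tissue (adjusted p = 0.603, 0.878 and 1). As a share of the reads of Gm14719 and Ppdpf, Gm14719 made up 8.85% to 14.6% in the 7 libraries where it was high and at most 0.436% in the sham libraries.

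Gm7868 (ENSMUSG00000113600) lies on chromosome 12 from 69123101 to 69123780 on the plus strand, a processed pseudogene of 680 bases. It aligned to the coding sequence of Txndc9 (chromosome 1), a thioredoxin-like protein, at 98.7% identity, with 8 substitutions and 1 missing base. Counted from the 5′ end of Gm7868, with the Txndc9 base first, the substitutions are C48T, A168C, C186G, G254A, G350A, G461A, T503C and T617C. The last 3 are shown in capitals in positions 446 to 632 of Gm7868 and 674 to 860 of a Txndc9 transcript of 3381 bases, as an example of how far apart the telling bases lie.
Gm7868: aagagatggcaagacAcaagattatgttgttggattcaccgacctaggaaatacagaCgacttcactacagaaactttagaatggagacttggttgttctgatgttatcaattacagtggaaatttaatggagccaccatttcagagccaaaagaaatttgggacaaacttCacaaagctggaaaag
Txndc9: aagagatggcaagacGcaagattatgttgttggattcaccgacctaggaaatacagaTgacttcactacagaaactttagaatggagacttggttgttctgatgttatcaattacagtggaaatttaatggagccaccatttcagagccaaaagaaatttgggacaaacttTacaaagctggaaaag

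With 60.7% of its 50-base stretches unique, Gm7868 can be told from its parent over more of its length than the other copies. It was on, at 1.0 to 3.0 CPM, in bulbectomy 1 and 2 of every tissue and was measured at or below 0.103 CPM in all other libraries. Of these, only hippocampus sham 4, the deepest library, was above the level of 3 reads, at 0.0242 CPM. Hippocampus bulbectomy 1 to 4 had 27, 14, 0 and 0 reads, or 3.0, 1.71, 0 and 0 CPM, so Gm7868 was off in hippocampus bulbectomy 4, where Tpm3-rs7 and Gm14719 were on. Cortex bulbectomy 1, 2 and 4 had 22, 11 and 0 reads, or 1.45, 1.07 and 0 CPM. Cerebellum bulbectomy 1 and 2 had 14 and 41 reads, or 1.0 and 1.99 CPM. The 15 sham libraries had 0 reads apart from 4 in hippocampus sham 4, 1 in cortex sham 1 and 1 in cerebellum sham 4. The 0 reads of Gm7868 still allow a level of up to 0.38 CPM in hippocampus bulbectomy 3, 0.363 in hippocampus bulbectomy 4 and 0.306 in cortex bulbectomy 4.

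Txndc9 was at 57.9, 61.9, 46.1 and 45.0 CPM in hippocampus bulbectomy 1 to 4 and at 35.7 to 54.5 in the hippocampal sham libraries. It was thus above the sham range in hippocampus bulbectomy 1 and 2, where Gm7868 was on. In cortex bulbectomy 1, 2 and 4 it was at 36.16, 46.75 and 40.76 CPM, inside the sham range of 35.11 to 53.81. In cerebellum bulbectomy 1 and 2 it was at 55.72 and 68.0 CPM, inside the sham range of 42.14 to 93.85. Txndc9 passed the edgeR test in no tissue. Gm7868 made up 1.77% to 4.93% of the reads of the pair in the 6 libraries where it was on. Gm7868 correlated with Tpm3-rs7 at r = 0.863 and with Gm14719 at r = 0.852 over the 24 libraries.

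The 3 copies lie on chromosomes 14, X and 12 and their parents on 3, 2 and 1. The correlation of each copy with its nearest genes is given as a description. The copies were chosen for their levels in these libraries and the neighbours were not. These values are therefore not compared with the correlations between the copies. The 3 nearest genes with at least 10 reads in all on each side of Tpm3-rs7, at 1631 to 4400 kilobases, correlated with it at r = -0.689 to 0.394. For Gm14719, whose neighbours lie at 121 to 1180 kilobases, r was -0.209 to 0.415, and for Gm7868, at 33.9 to 2665 kilobases, -0.337 to 0.332. Around Tpm3 the range was -0.509 to 0.41.

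As a description of how far the title numbers alone carry the level, the tissue-centred variation of log2 CPM was split between and within the 8 numbers that occur in more than 1 tissue (23 libraries, with bulbectomy and sham numbers kept apart). Between numbers lay 94.8% for Gm7868, 89.4% for Tpm3-rs7, 87.5% for Gm14719 and 86.0% for Tpm3. The median of 23730 genes was 47.0%; the genes were chosen from these same levels, so nothing is read from that difference. For Gm5741 the share was 34.8% and for Gm44168 17.3%. Since each number belongs to 1 operation, this share also holds any difference between the operations.

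Among other genes, Gm14305 on chromosome 2 was closest to this group by Pearson's correlation, with r = 0.915 to Tpm3-rs7 and 0.878 to Gm14719. It had 2, 4, 0 and 4 reads in hippocampus bulbectomy 1 to 4, 10, 16 and 0 in cortex bulbectomy 1, 2 and 4, and 2 and 14 in cerebellum bulbectomy 1 and 2. In the sham libraries Gm14305 had 0 to 2 reads, apart from 6 in hippocampus sham 4. Zmat3, which encodes a zinc finger RNA-binding protein, was among the 5 most like both Tpm3-rs7 (r = 0.8) and Gm14719 (r = 0.851), but it had a different shape. Its bulbectomy libraries, from 64.1 to 109 CPM, were all above its sham libraries, from 29.8 to 62.7 CPM, with hippocampus bulbectomy 3 at 64.1 and cortex bulbectomy 4 at 80.8. Ddit4, a stress-induced inhibitor of mTOR signalling, was also among those of Tpm3-rs7 (r = 0.805), at 33.1 to 79.8 CPM after bulbectomy and 22.1 to 57.5 after sham operation. Tsc22d3, a glucocorticoid-induced gene, was among those of Gm14719 (r = 0.838). The remaining genes named for Gm7868, Them5 (r = 0.833) and Slc15a1 (r = 0.826), stayed at or below 0.146 CPM in all 24 libraries, at or under the level of 3 reads in most of them.

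Gm5741 (ENSMUSG00000095845) lies on chromosome 8 from 85067568 to 85067982 on the minus strand, with 328 exonic bases annotated as protein coding, and all of its 50-base stretches were unique. It followed tissue and operation and not the title numbers. Hippocampus bulbectomy 1 to 4 had 48, 26, 33 and 22 reads, or 5.33, 3.18, 4.18 and 2.66 CPM. Hippocampal sham libraries 1 to 5 had 0, 0, 0, 5 and 0 reads, and the 5 reads of sham 4 are 0.0303 CPM. The groups did not overlap.

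In cortex and cerebellum Gm5741 was at the level of 3 reads or below in most libraries. Cortex bulbectomy had 2, 1 and 1 reads and cortex sham 3, 1, 0, 0 and 2, and cerebellum bulbectomy had 1 and 2 and cerebellum sham 1, 0, 5, 1 and 3. The nearest genes, Fbxw9 at 0.444 kilobases, Dhps at 3.78 and the other four up to 12.8, correlated with Gm5741 at r = -0.124 to 0.416.

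The genes most like Gm5741 were Pou4f1 (r = 0.917), Gpr151 (0.89), Teddm3 (0.859), Sssca1 (0.857) and Irx2 (0.855). Pou4f1 is a transcription factor of habenular neurons, and Gpr151 is a receptor known from the habenula, a small nucleus that lies next to the thalamus and close to the hippocampus. Pou4f1 was at 1.67, 1.84, 1.01 and 1.21 CPM in hippocampus bulbectomy 1 to 4, and the sham libraries had 0, 0, 0, 3 and 0 reads. Gpr151 was at 9.11, 5.26, 2.66 and 2.42 CPM in the bulbectomy libraries and at 0 to 0.598 in the sham libraries. Both stood apart between the hippocampal groups, as Gm5741 did. They were picked for their likeness to Gm5741 in these same libraries, so nothing is read from that.

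The whole list of 8 thalamic and habenular markers summed to 211 to 388 CPM in the hippocampal bulbectomy libraries and to 66.8 to 274 in the sham libraries, and 5 of the 8 did not overlap between the groups, all with bulbectomy above. Tac2 was at 18.4 to 29.8 against 3.57 to 9.93 CPM and Chrnb4 at 3.67 to 6.55 against 0.315 to 1.12, and Tcf7l2 at 31.5 to 62.3 against 3.35 to 22.1. Gpr151, 1 of these 5, is also among the genes picked above for likeness to Gm5741. It was at 0 in 1 sham library, and no other gene of the list was at 0 in a hippocampal library. Nwd2 had the lower median after bulbectomy in hippocampus, 12.85 against 14.21 CPM. In cortex, where Gm5741 was near the floor, 3 of the 8 markers did not overlap, with bulbectomy above. In cerebellum 2 of the 8 did not overlap, with bulbectomy below. Among 23730 genes with at least 10 reads, the groups did not overlap in 6.29% in hippocampus, 3.32% in cortex and 9.38% in cerebellum. The part of these marker levels in the Gm5741 level was not tested.

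**Figure D5:**
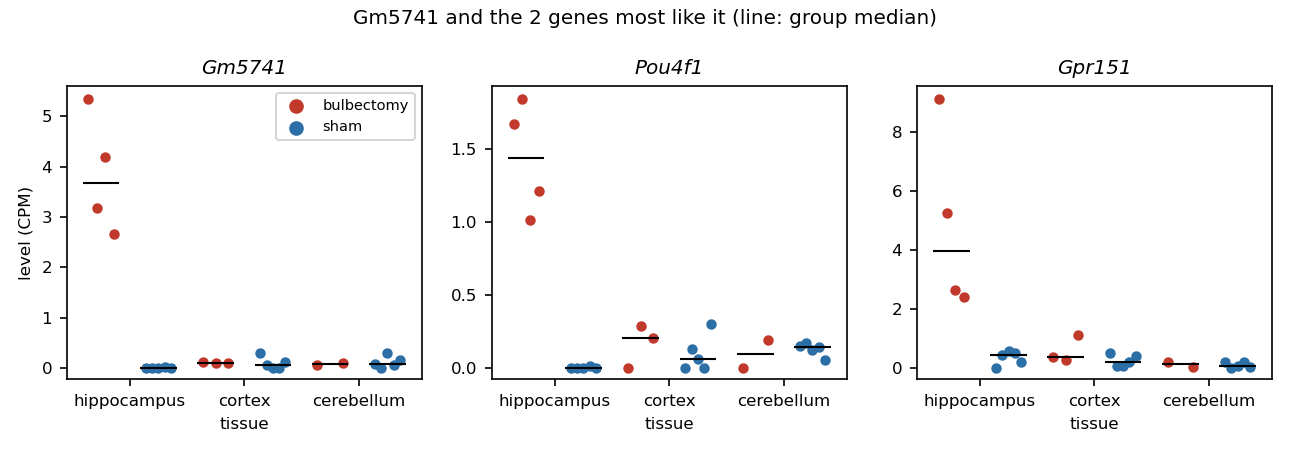
Level in CPM (y axis, own scale in each panel) of Gm5741 and of Pou4f1 and Gpr151, the genes most like it, by tissue (x axis), with 1 point a library, red for bulbectomy, blue for sham, and a line at the group median. All 3 genes are raised in the 4 hippocampal bulbectomy libraries: Gm5741 lies at 2.66 to 5.33 CPM there and at or below 0.312 CPM in all other libraries.

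Gm44168 (ENSMUSG00000108049) lies on chromosome 6 from 87986191 to 87989729 on the plus strand, as a single block of 3539 bases whose annotation still has to be tested by experiment. Of its 50-base stretches 99.9% were unique. Gm5577 overlaps it on the same strand with 0 shared exonic bases. It was low everywhere. Hippocampus bulbectomy 1 to 4 had 1, 0, 0 and 0 reads, and sham 1 to 5 had 2, 9, 1, 122 and 2 reads, or 0.59, 1.04, 0.12, 0.739 and 0.21 CPM.

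The hippocampal bulbectomy libraries thus lay below the sham libraries, but the closest values, 0.111 and 0.12 CPM, are 1 read each. Only sham 2 and sham 4 were above the level of 3 reads, and sham 2 is 1 of the pair with raised striatal markers. In cortex, bulbectomy 1, 2 and 4 had 8, 1 and 2 reads and sham 1 to 5 had 1, 3, 3, 2 and 8, with overlapping groups. In cerebellum the order was the opposite of that in hippocampus: bulbectomy 1 and 2 had 5 and 12 reads, or 0.358 and 0.583 CPM, and sham 1 to 5 had 2, 1, 0, 0 and 0. The genes most like Gm44168 were Ddx17 (r = 0.854), an RNA helicase, Chrm4 (0.816), a muscarinic receptor abundant in striatum, 4932422M17Rik (0.812), Gm49188 (0.8) and Ccnl2 (0.786), a cyclin linked to splicing.

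Over the 5 genes chosen for their pattern, few passed the low-count filter of the fits and so could be called at all. In hippocampus 2 were tested and 2 were called (Tpm3-rs7 and Gm5741), in cortex 1 was tested and 0 were called (Tpm3-rs7), and in cerebellum 3 were tested and 2 were called (Tpm3-rs7 and Gm14719). The shares of all genes called are those given with Tpm3, and in cerebellum these 2 genes were the only 2 called. They were chosen with these contrasts known, so nothing is read from the counts. By ranges, the bulbectomy and sham groups did not overlap for 2 of the 6 genes in hippocampus, for 0 in cortex and for 4 in cerebellum. Over all genes with at least 10 reads the shares were 6.29%, 3.32% and 9.38%, and in cerebellum 2 bulbectomy libraries met 5 sham libraries.

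The pairwise correlations show 2 patterns among the 6 genes. Tpm3-rs7, Gm14719 and Gm7868 were positively related to each other (r = 0.852 to 0.978) and negatively to Tpm3 (r = -0.79 to -0.866). Gm5741 correlated with Gm14719 at r = 0.505, with Tpm3-rs7 and Gm7868 at r = 0.443 each and with Gm44168 at r = -0.594. Gm44168 correlated with the 3 copies at r = -0.064 to 0.081. All of these share the same 24 libraries and the floor of 0 reads, and they are given as a description with no p.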

How the data were processed

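RNA-seq read counts were analysed for 24 libraries. Per the labels, polyadenylated RNA was sequenced single-end from a directional kit. Trimmomatic, STAR and featureCounts with mm10 are named in the submitters' processing notes, without versions. The deposited files hold whole-number counts per Ensembl gene as the authors made them, and 12 rows of assignment totals were left out. Of 55487 identifiers, 55141 matched a symbol. Positions, types and transcripts came from GENCODE M21, on the same build.

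CPM were reads divided by the assigned total times edgeR's TMM factor over 24 libraries. Bulbectomy was compared with sham within a tissue by edgeR 4.0.16 (filterByExpr, robust glmQLFit, glmQLFTest; R 4.3.3), tested on simulated data first. Sham tissues were compared in 1 fit of all libraries. DESeq2 1.42.0, RLE and upper-quartile scaling, no filter, a replicate block, leaving out libraries, and other pseudocounts than 0.5 were tried. Copies were aligned with Biopython. Likeness was Pearson's r of tissue-centred log2(CPM + 0.5) over genes with at least 10 reads, and the 5 highest were named, with the 3 nearest genes on each side as neighbours. Partner genes were named if called, otherwise the 3 with the smallest p in a tissue, with Tpm1, Tpm2 and Tpm4 always. Members and lists were chosen with earlier results of these data known.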

Additional observations from a re-analysis of the deposited data

Results flagged for a closer look

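In each gene and group of 4 or 5 libraries, 1 library far from the rest was looked for with Dixon's test at the 95% level. It stood out in 8 of the 32 groups with any spread, where chance gives about 1 in 20 among groups not chosen for their values. These genes were chosen for uneven levels, and in 6 of the 8 groups all other libraries were at 0 reads, so nothing is read from how many stood out.

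Gm14719 in hippocampus bulbectomy 3 was at 0 CPM, where bulbectomy 1, 2 and 4 were at 7.0 to 7.71, and it is the one of these values that lies below its group. Hippocampus sham 4, the deepest library, was the only sham library of its tissue with reads for 3 genes: Gm14719 at 0.0424 CPM (7 reads), Gm5741 at 0.0303 CPM (5 reads) and Gm7868 at 0.0242 CPM (4 reads). Gm7868 also had 1 read in cortex sham 1 (0.103 CPM) and 1 in cerebellum sham 4 (0.0725 CPM), with the other libraries of each group at 0. Gm44168 had 1 read in hippocampus bulbectomy 1 (0.111 CPM), with the other three at 0, and 8 reads in cortex sham 5 (0.488 CPM), where the next library was at 0.195 CPM.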

How the results depend on the processing

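Tpm3 kept its lower value after bulbectomy and stayed uncalled under every alternative run: -0.87 to -0.09 in hippocampus, -0.87 to -0.19 in cortex and -1.06 to -0.18 in cerebellum, the ends nearest 0 being those with the Tpm3-rs7 reads added. With the replicate block it was -0.62, -0.70 and -0.69. Same-numbered libraries of 1 operation in different tissues correlated at r = -0.161 to 0.454 (22 pairs, median 0.254, against a median of -0.06 over 79 pairs with other numbers) and same-numbered bulbectomy and sham libraries of a tissue at -0.287 to 0.323 (9 pairs), and since the labels name no animal and the lowest pairs were below 0, numbers were not taken to pair the samples. Among sham libraries, cortex minus cerebellum was called with a replicate block (0.48, adjusted p = 0.0276, by edgeR) and not otherwise (0.30 to 0.57). Partner genes called in hippocampus were 1, but 3 by DESeq2, 0 with the replicate block, 2 without sham 1 and 2, and 0 to 2 leaving out 1 library; in cortex they were 0, and 0 to 4 leaving out 1 library (4 without bulbectomy 1, which also gave the 573 genes below). All genes called were 217, 3 and 2 in hippocampus, cortex and cerebellum, and 955, 39 and 12 by DESeq2, 76, 13 and 0 with the replicate block, 30 to 477, 1 to 573 and 0 to 36 leaving out 1 library (lowest in hippocampus without bulbectomy 2, highest without sham 2 in hippocampus, bulbectomy 1 in cortex and sham 1 in cerebellum), 7 in cortex with RLE scaling, 5 in cortex and 3 in cerebellum in 1 fit of all libraries, 0 in cerebellum with the Tpm3-rs7 reads added, 24 in cortex without the filter and 348 in hippocampus without sham 1 and 2. Values near 0 changed sign: Tpm1 in cortex was -0.005 with DESeq2, -0.005 with RLE and -0.009 with upper-quartile scaling and -0.017 without the filter, Tpm2 in hippocampus 0.33 without sham 1 and 2, and Ppdpf in cerebellum 0.17 with the replicate block. Leaving out 1 library, Tpm1 ran from -0.041 to 0.172 in hippocampus and -0.152 to 0.077 in cortex, Tpm4 from -0.085 to 0.295 and -0.042 to 0.239, and Tpm2 from -0.411 to 0.037 in hippocampus; none of these was called. The differences of the 5 pattern genes moved beyond 1 SD in 12 of 165 alternatives, all other pseudocounts, and the cause of other changes was not tested. Spearman's rho kept 0 to 2 of the 5 genes most like each member. A level under 3 reads a library was not readable at this depth.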
